A study of Arabidopsis thaliana with 16 samples.

Results

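The 53 genes described here encode the leucine-rich repeat receptor-like proteins (RLPs) of Arabidopsis thaliana. They were chosen by locus code from the family list RLP1 to RLP57, which includes CLAVATA2 (CLV2, RLP10) and TOO MANY MOUTHS (TMM, RLP17). All 53 loci had a probe set among the 27826 on the array. No measured value entered the rule for members, though the family was chosen with earlier results of these data known. Their expression was compared in leaves of lines labelled as knockdown or knockout of parts of the N-terminal acetylation machinery. This ribosome-associated system acetylates the first residue of many new proteins. Leaves came from 4 genotypes with 4 arrays each, 16 arrays in all. The amiNAA10 line carries an artificial microRNA against NAA10, the catalytic subunit of the acetyltransferase NatA. A pair of T-DNA lines is labelled as knockout of HYPK, a small protein that binds NatA; one has its insertion in the first exon (exon 1 line) and one in the second exon (exon 2 line). Wild type (WT) was the control. Every plant was untreated, 6 weeks old and grown on soil with 8.5 h of light a day, with 22 °C in the light and 18 °C in the dark. The labels give neither the promoter of the artificial microRNA nor the number of plants behind an array. They do not say whether arrays of a genotype were separate plants, so each p-value reflects how far these samples varied, a variation that may be technical.

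RLPs are cell-surface receptors with leucine-rich repeats outside the cell, one membrane span and no kinase domain of their own. Members with an immune role bind microbial molecules and signal through the adaptor kinase SOBIR1 and co-receptor kinases such as BAK1. A few members act in development instead: CLV2 in meristem size control, TMM in the spacing of stomata, and RLP44 in signalling from the cell wall. In leaves the immune members contribute to resistance against fungi, oomycetes and bacteria.

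All values are the authors' log2 expression values from robust multi-array averaging (RMA, which corrects background, equalises the arrays and sums up the probes of a gene). Differences are in log2 units. Adjusted p-values come from limma's moderated test on all 16 arrays with Benjamini-Hochberg adjustment over all probe sets; a gene was called when its adjusted p was under 0.05, and "rose" or "fell" is used for called genes alone. Levels of different probe sets are not compared, since each probe set has its own response. Probe sets with a mean under 1.83 over all arrays form the dimmest 30% of the table, and 10 RLP genes lie there; a fold change against a mean near that level may be too small.

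The arrays were checked before the RLP genes were read. NAA10 (AT5G13780) averaged 2.89 ± 0.16 in amiNAA10 and 4.96 ± 0.10 in WT (SD, n = 4 each; adjusted p = 2.46e-08). HYPK (AT3G06610) averaged 4.72 ± 0.14 in the exon 1 line and 5.66 ± 0.08 in WT (adjusted p = 0.000155). In the arrays labelled as exon 2 line it averaged 5.40 ± 0.27, which was not called against WT (difference -0.26, adjusted p = 0.191), so the HYPK signal does not check that label. Replicate 4 of the exon 2 line stood apart from its group, at -44.3 on the first principal component against -1.87 to 15.5 for the other exon 2 arrays. Its HYPK value was 5.04, and those of the other exon 2 arrays were 5.38 to 5.66. The numbers of called RLP genes and the differences of some genes are therefore given with and without it. The leaf marker RBCS1A was bright in every genotype, with means between 12.72 and 12.84, while the floral markers AG, AP1, AP3 and PI had means of at most 1.82. Some other cell type markers were called. Over all probe sets 15.4% were lower in amiNAA10 and 11.5% in the HYPK lines, and 15.4% and 11.2% were higher. Of 4 mesophyll markers 3 fell in amiNAA10 (LHCB2.1 by 0.997, PSBO1 by 0.44 and RCA by 0.29) and 1 in the HYPK lines (PSBO1 by 0.26); their summed level was 40.8 to 41.6 in amiNAA10, 42.4 to 42.6 in the exon 1 line, 42.0 to 42.8 in the exon 2 line and 42.7 to 43.0 in WT. Both phloem markers fell in amiNAA10 (SUC2 by 0.88, APL by 1.16) and APL fell in the HYPK lines (by 0.54). The guard cell markers KAT1 and MYB60 fell in both comparisons, and OST1 was not called. PYK10, the 1 root marker, rose by 1.86 in amiNAA10 and was not called in the HYPK lines. The part of such shifts in the RLP values was not tested. In whole leaves a change in the number of cells of a type cannot be told apart from a change of RNA per cell.

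Most RLP genes were higher in leaves with less NAA10 transcript, and nearly as many in the HYPK lines. In amiNAA10, 30 of the 53 rose and 1 fell, against 15.4% of all probe sets higher and 15.4% lower. Of these, 19 rose at least 2-fold, which 4.21% of all probe sets did. In the mean of both HYPK lines 26 rose and 1 fell, against 11.2% higher and 11.5% lower over all probe sets. Here 19 RLP genes rose at least 2-fold, against 2.24% of all probe sets. Without exon 2 replicate 4, 25 rose and 1 fell in that mean, against 9.99% and 10% of all probe sets. The median difference of the 53 genes was 0.62 in amiNAA10 and 0.45 in the HYPK lines, beside -0.02 and -0.01 over all probe sets. In 31 genes all 4 amiNAA10 arrays lay above all 4 WT arrays, a pattern found in 15.4% of all probe sets, and in 1 gene they lay below, as in 15.3%. All 8 HYPK arrays lay above the WT arrays in 19 genes, a pattern found in 6.52% of all probe sets. Both comparisons use the same 4 WT arrays. Of the called genes, 25 rose in both comparisons and RLP6 fell in both. A further 5 rose in amiNAA10 only, and 1 rose in the HYPK lines only. No gene had opposite calls, and 21 were called in neither. Calls shared by both comparisons were not counted over all probe sets, so this overlap is not shown to be particular to RLP genes. PR1, a secreted marker of salicylic acid defence, was higher on the same arrays, at 6.96 to 8.67 in amiNAA10, 5.68 to 9.10 in the exon 1 line and 3.41 to 9.21 in the exon 2 line, against 1.84 to 3.12 in WT. The part of this defence state in the RLP values was not tested.

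**Figure D1:**
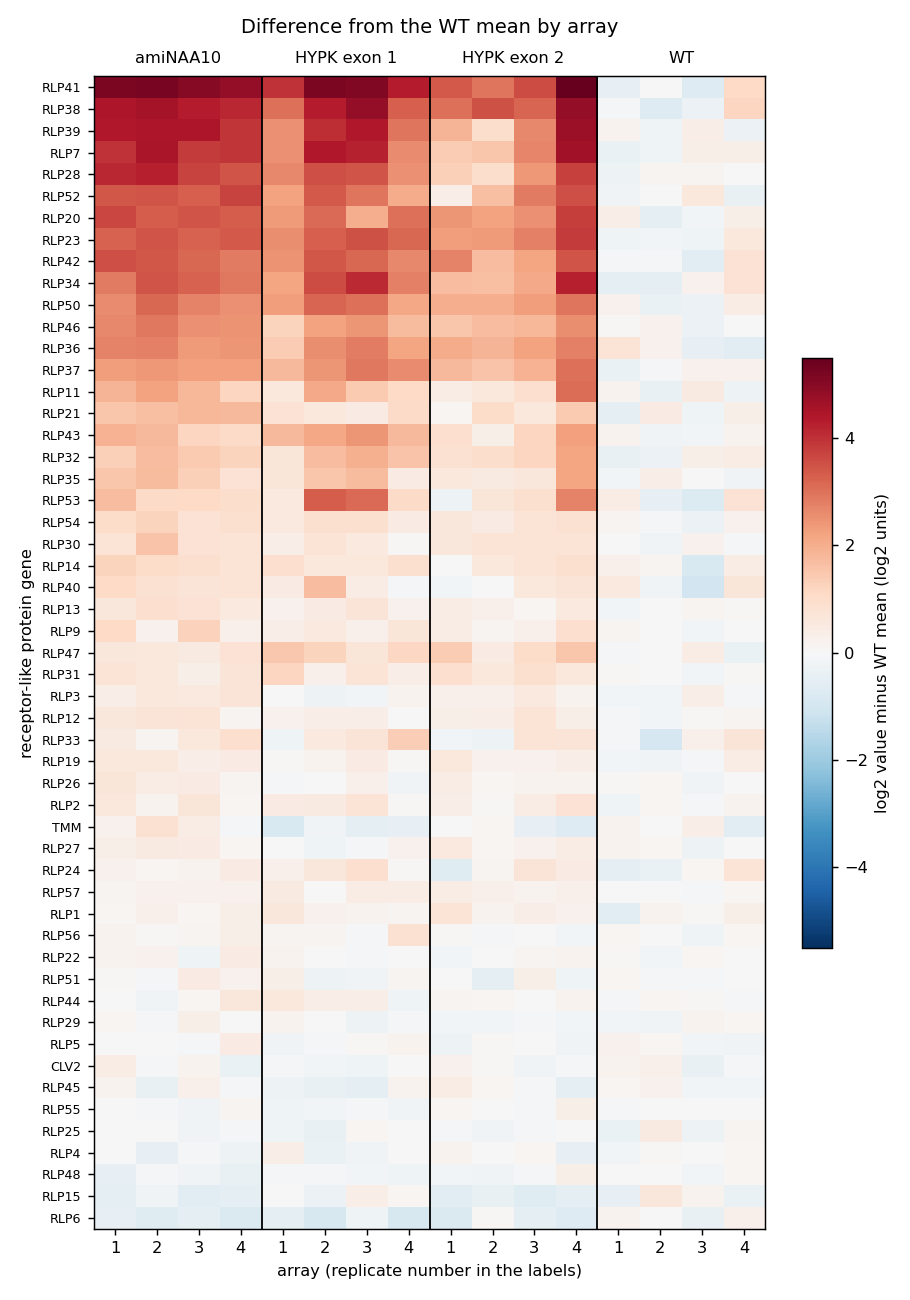
Difference of each array from the WT mean of the same gene (log2 units, colour scale) for the 53 RLP genes, ordered by their difference in amiNAA10; columns are the arrays of amiNAA10, the HYPK exon 1 line, the HYPK exon 2 line and WT. The upper rows are red in the 12 arrays of the lines, most deeply in amiNAA10 and in exon 2 replicate 4, and the lower rows are pale throughout.

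Among the RLPs with known microbial ligands, RLP23, RLP32, RLP42 and RLP30 rose and RLP1 was not called. RLP23, the receptor for a peptide of NLP toxins of bacteria, oomycetes and fungi, read 9.10, 9.29, 9.11 and 9.20 in amiNAA10. In the exon 1 line it read 8.39, 9.14, 9.35 and 9.0, in the exon 2 line 8.14, 8.20, 8.60 and 9.68, and in WT 5.62, 5.70, 5.63 and 6.44. No array of a line overlapped WT, and the narrowest group was amiNAA10. RLP23 was thus 10.04-fold higher in amiNAA10 (difference 3.33, SE 0.29, adjusted p = 1.02e-06) and 7.81-fold higher in the HYPK lines (2.97, SE 0.25, adjusted p = 1.61e-06).

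RLP42, which responds to fungal endopolygalacturonases, read 8.08, 7.97, 7.67 and 7.38 in amiNAA10. Its values in the HYPK lines were 6.99, 7.94, 7.67 and 7.18 in the exon 1 line and 7.27, 6.25, 6.71 and 7.99 in the exon 2 line. WT read 4.48, 4.43, 3.91 and 5.31, so that every line array was above every WT array. The differences were 3.24 (SE 0.34, adjusted p = 4.87e-06) in amiNAA10 and 2.72 (SE 0.29, adjusted p = 1.41e-05) in the HYPK lines. RLP32 recognises bacterial translation initiation factor 1. It read 4.91, 5.31, 5.03 and 4.82 in amiNAA10, 4.25, 5.30, 5.56 and 5.17 in the exon 1 line, 4.45, 4.58, 4.79 and 5.78 in the exon 2 line, and 3.19, 3.27, 3.95 and 4.03 in WT. The rise was of like size in both comparisons, 1.41 (SE 0.30, adjusted p = 0.00183) in amiNAA10 and 1.38 (SE 0.26, adjusted p = 0.00131) in the HYPK lines, again without overlap.

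RLP30, required for the response to a small protein of Sclerotinia fungi, changed less. It read 5.0, 5.82, 5.01 and 5.0 in amiNAA10, where replicate 2 stood above the rest, and 4.25, 4.04, 4.48 and 4.17 in WT. In the exon 1 line it read 4.60, 4.98, 4.77 and 4.29 and overlapped WT, while the exon 2 line, at 4.85, 4.99, 5.0 and 4.97, did not. The rise in amiNAA10 was 0.97 (SE 0.18, adjusted p = 0.000606). For the HYPK lines it was 0.57 (SE 0.16, adjusted p = 0.0141). Leaving out WT replicate 2 raised that adjusted p to 0.0541. RLP1, a receptor for a Xanthomonas protein, read 2.99 to 3.18 in amiNAA10, 3.0 to 3.48 in the exon 1 line, 3.06 to 3.62 in the exon 2 line and 2.26 to 3.21 in WT. Its differences of 0.20 (SE 0.18, adjusted p = 0.469) and 0.34 (SE 0.16, adjusted p = 0.134) were within the spread of the WT arrays.

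Genes of the immune group with no ligand named here behaved unequally. RLP52, known for resistance to powdery mildew, read 6.04, 6.09, 5.90 and 6.33 in amiNAA10, 4.81, 5.98, 5.56 and 4.67 in the exon 1 line and 2.44, 2.62, 3.21 and 2.21 in WT. The exon 2 arrays were spread over 2.99, 4.26, 5.49 and 6.15, and the lowest of them lay inside the WT range. RLP52 was 11.1-fold higher in amiNAA10 (3.47, SE 0.49, adjusted p = 6.13e-05) and 5.17-fold higher in the HYPK lines (2.37, SE 0.42, adjusted p = 0.000846). RLP3 (RFO2) contributes to resistance against Fusarium oxysporum. Its values were 3.5, 3.71, 3.66 and 3.84 in amiNAA10 and 2.96, 2.97, 3.5 and 3.05 in WT, where replicate 3 reached the lowest amiNAA10 value. The rise of RLP3 in amiNAA10 was 0.55 (SE 0.14, adjusted p = 0.00607). It was not called in the HYPK lines (0.13, SE 0.12, adjusted p = 0.483), where the exon 1 arrays read 2.83 to 3.32 and the exon 2 arrays 3.31 to 3.65. RLP51 (SNC2), whose gain-of-function allele causes constitutive defence, overlapped WT in every line. It read 5.29 to 5.84 in amiNAA10, 5.11 to 5.71 in the exon 1 line, 4.92 to 5.72 in the exon 2 line and 5.30 to 5.52 in WT, with differences of 0.16 (SE 0.17, adjusted p = 0.543) in amiNAA10 and -0.05 (SE 0.15, adjusted p = 0.857) in the HYPK lines.

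The largest rises were in RLP genes with no ligand named here, first RLP41 and RLP38. RLP41 (AT3G25010) read 9.83, 9.89, 9.69 and 9.5 in amiNAA10, 8.64, 9.83, 9.75 and 9.01 in the exon 1 line, 8.04, 7.59, 8.25 and 10.49 in the exon 2 line, and 4.23, 4.70, 3.98 and 5.77 in WT. The lowest line array, exon 2 replicate 2, still lay above the highest WT array, replicate 4. RLP41 was 33.4-fold higher in amiNAA10 (5.06, SE 0.50, adjusted p = 3.08e-06) and 19.4-fold higher in the HYPK lines (4.28, SE 0.43, adjusted p = 8.85e-06). RLP38 (AT3G23120) read 9.39, 9.53, 9.28 and 9.11 in amiNAA10, 7.98, 9.27, 9.80 and 8.23 in the exon 1 line and 7.96, 8.43, 8.12 and 9.78 in the exon 2 line, against 4.82, 4.23, 4.62 and 6.11 in WT. Its WT replicate 4 was the highest WT array, as for RLP41 and RLP23, and stayed below every line array. The rises were 20.9-fold in amiNAA10 (4.38, SE 0.44, adjusted p = 4.04e-06) and 3.75 in log2 units in the HYPK lines (SE 0.38, adjusted p = 9.73e-06).

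RLP39, RLP7 and RLP28 were low in WT and spread widely in the HYPK lines. RLP39 (AT3G24900) read 7.12, 7.15, 7.19 and 6.63 in amiNAA10, 5.25, 6.79, 7.12 and 5.69 in the exon 1 line, 4.58, 3.71, 5.38 and 7.44 in the exon 2 line, and 2.91, 2.48, 3.08 and 2.41 in WT. RLP7 (AT1G47890) read 6.30, 6.80, 6.15 and 6.27 in amiNAA10, 4.81, 6.71, 6.54 and 4.94 in the exon 1 line, 3.71, 3.83, 4.98 and 6.94 in the exon 2 line, and 1.96, 2.06, 2.62 and 2.63 in WT. RLP28 (AT2G33080) read 6.19, 6.31, 5.73 and 5.49 in amiNAA10, 4.67, 5.59, 5.47 and 4.54 in the exon 1 line, 3.32, 3.01, 4.43 and 5.79 in the exon 2 line, and 1.74, 2.16, 2.18 and 2.02 in WT. In all 3 genes exon 1 replicates 2 and 3 were above replicates 1 and 4, exon 2 replicate 4 was the highest of its line, and no line array reached down to WT. The differences in amiNAA10 were 4.30 (SE 0.57) for RLP39, 4.06 (SE 0.57) for RLP7 and 3.91 (SE 0.44) for RLP28, with adjusted p of 3.82e-05, 5.89e-05 and 1.03e-05. In the HYPK lines they were 3.02 (SE 0.49), 2.99 (SE 0.49) and 2.58 (SE 0.38), with adjusted p of 0.000455, 0.000481 and 0.000219.

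RLP20 and RLP34 complete the genes with the largest rises. RLP20 (AT2G25440) read 7.37, 7.03, 7.16 and 7.03 in amiNAA10, 6.02, 6.80, 5.70 and 6.70 in the exon 1 line, 6.13, 5.91, 6.19 and 7.5 in the exon 2 line, and 4.07, 3.13, 3.56 and 4.00 in WT. It rose 10.98-fold in amiNAA10 (adjusted p = 1.74e-06) and 6.39-fold in the HYPK lines (adjusted p = 9.23e-06). RLP34 (AT3G11010) read 7.74, 8.30, 8.12 and 7.77 in amiNAA10, 7.05, 8.43, 8.97 and 7.62 in the exon 1 line, 6.57, 6.5, 6.94 and 9.14 in the exon 2 line, and 4.35, 4.34, 5.09 and 5.65 in WT. Neither gene overlapped WT in any line, and for RLP34 the rises were 8.70-fold (adjusted p = 0.000206) and 6.93-fold (adjusted p = 0.000346).

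**Figure D2:**
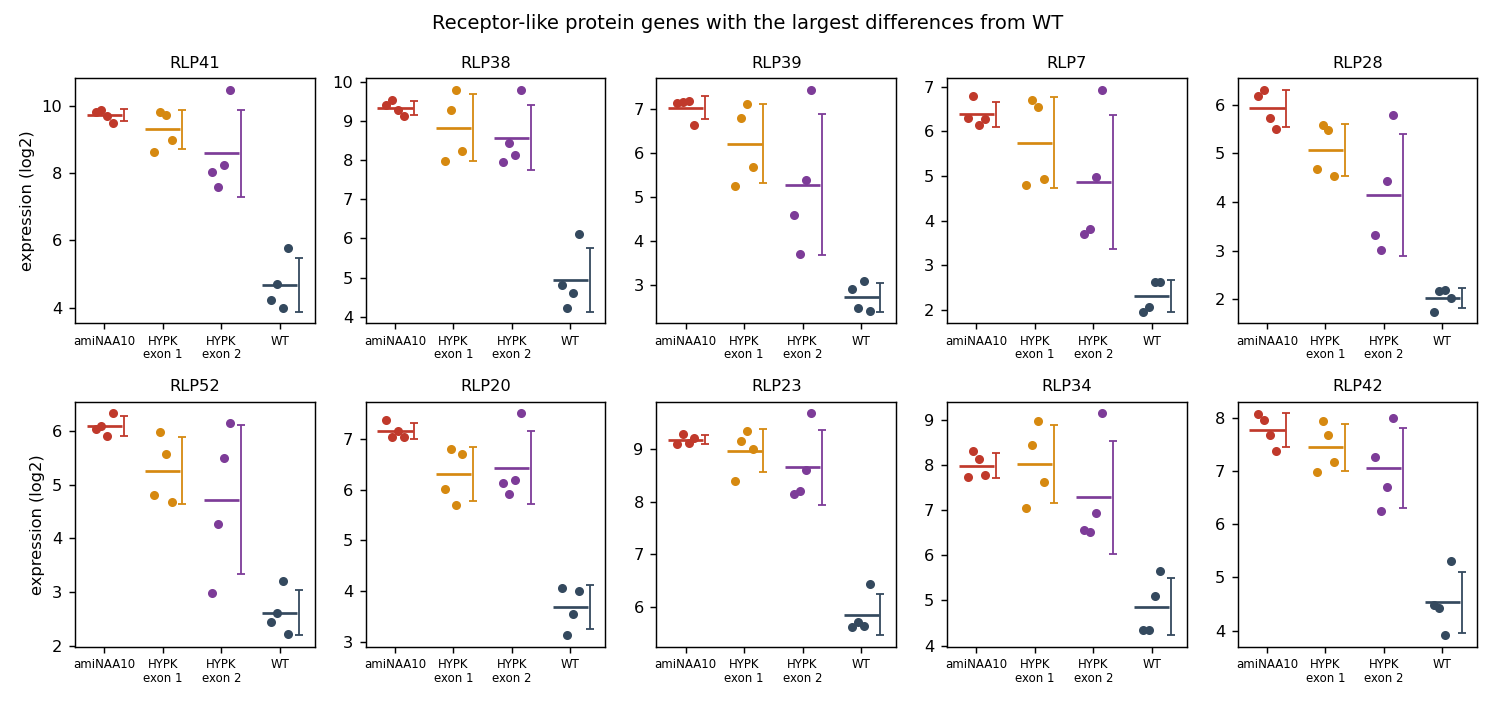
Expression (log2) of 10 RLP genes with large rises, 1 point per array; horizontal lines are genotype means and bars are SD (n = 4). WT points lie at the bottom of every panel but that of RLP52, where the lowest exon 2 point lies inside the WT range. The amiNAA10 points spread less than those of either HYPK line, and exon 2 replicate 4 is the top point of the exon 2 line.

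The other 13 genes that rose in both comparisons differed from WT by 0.58 to 2.76 in amiNAA10. RLP50, RLP46, RLP36 and RLP37 rose by 2.76, 2.63, 2.57 and 2.29 in amiNAA10 and by 2.48, 1.91, 2.23 and 2.26 in the HYPK lines. RLP46 read 7.36 to 7.77 in amiNAA10, 6.13 to 7.32 in the exon 1 line, 6.43 to 7.46 in the exon 2 line and 4.56 to 5.13 in WT. RLP43 was at 1.47 and 1.60 and RLP35 at 1.34 and 1.04, while RLP11 was at 1.77 and 1.27. RLP47 was one of 3 genes of the 25 with a larger difference in the HYPK lines (1.11, SE 0.19) than in amiNAA10 (0.62, SE 0.22); the others were RLP43 and RLP31. RLP54 read 9.45 to 9.86 in amiNAA10 and 8.35 to 8.89 in WT, a rise of 0.98 (SE 0.15, adjusted p = 0.000117) without overlap. In the HYPK lines it rose by 0.68 (SE 0.13, adjusted p = 0.00130). Over the 25 genes the differences ran from 0.58 to 5.06 with a median of 2.57 in amiNAA10, and from 0.37 to 4.28 with a median of 2.23 in the HYPK lines.

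**Figure D3:**
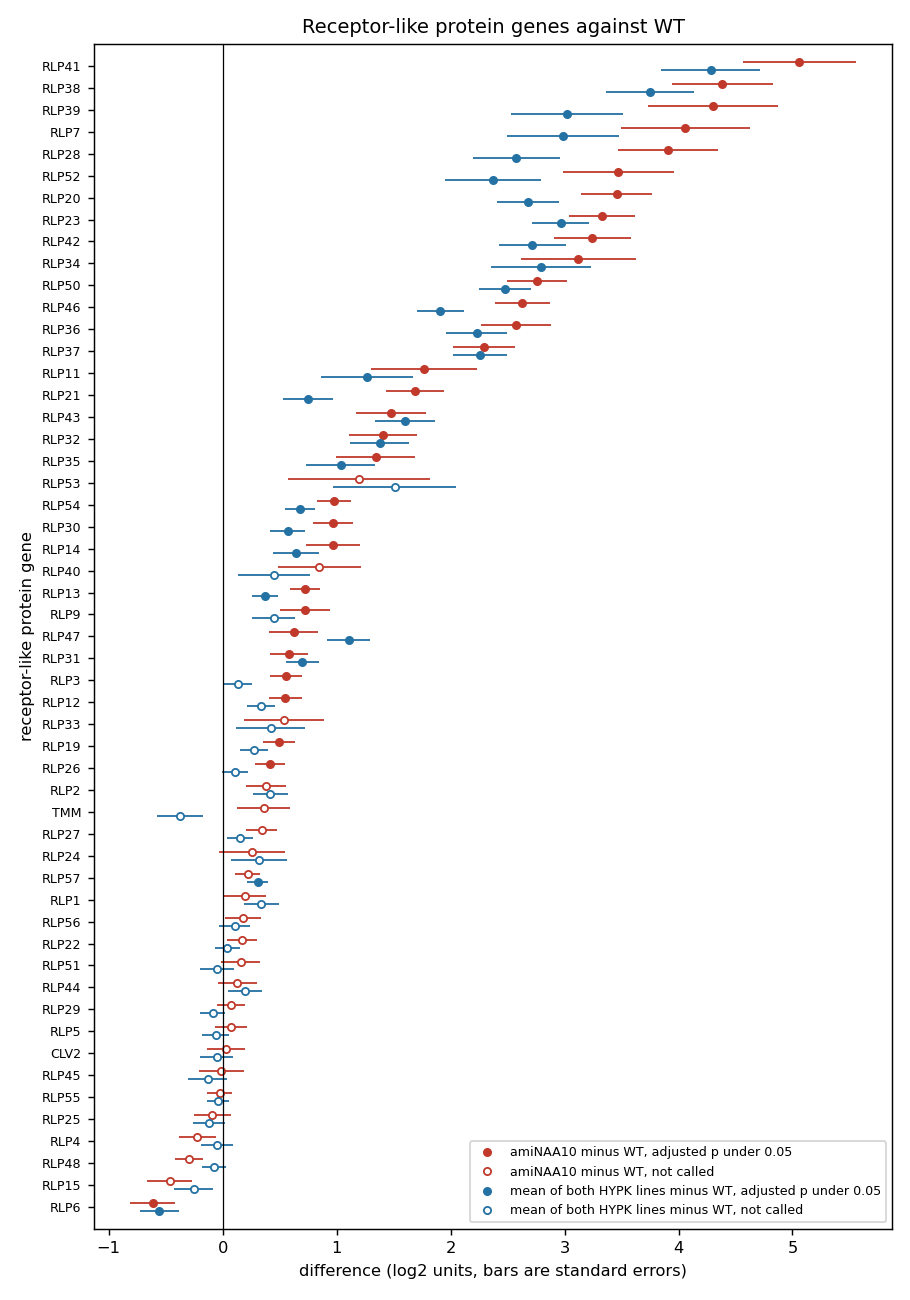
Differences from WT (log2 units, bars are standard errors) of the 53 RLP genes in amiNAA10 and in the mean of both HYPK lines; filled points have an adjusted p under 0.05. RLP41 lies farthest right at 5.06 and 4.28, and RLP6 is the filled gene left of 0.

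RLP6 was the single RLP gene that fell. It read 1.62, 1.41, 1.57 and 1.28 in amiNAA10, 1.58, 1.21, 1.87 and 1.18 in the exon 1 line, 1.27, 2.15, 1.55 and 1.39 in the exon 2 line, and 2.26, 2.04, 1.69 and 2.34 in WT. All amiNAA10 arrays lay below WT, while both HYPK lines overlapped it. The falls were by 0.61 (SE 0.20, adjusted p = 0.0267) in amiNAA10 and by 0.56 (SE 0.17, adjusted p = 0.0275) in the HYPK lines, on a gene of the dimmest 30%. The first call ended without amiNAA10 replicate 2 or 4 or WT replicate 1 or 4 (adjusted p = 0.0617 to 0.0790), and the second without exon 1 replicate 2 or WT replicate 1, 2 or 4 (adjusted p = 0.0510 to 0.0927). RLP9, RLP12, RLP19, RLP26 and RLP3 rose in amiNAA10, by 0.42 to 0.72, and were not called in the mean of both HYPK lines, where they differed by 0.11 to 0.45. Of these 5, RLP12 was called in the exon 2 line taken alone (0.44, adjusted p = 0.04997, just under the threshold). RLP57 rose in the mean of both HYPK lines, by 0.31, and was not called in amiNAA10 (0.22). A call in one comparison alone does not show that the lines differ; of these 6 genes, RLP3 was also called in the direct comparison of the lines.

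The 21 genes called in neither comparison had differences between -0.46 and 1.20 in amiNAA10 and between -0.37 and 1.51 in the HYPK lines, and 7 of them were in the dimmest 30%. RLP53 held both upper values. It read 5.39, 4.76, 4.80 and 4.66 in amiNAA10, 4.26, 7.04, 6.83 and 4.75 in the exon 1 line, 3.44, 4.38, 4.57 and 6.44 in the exon 2 line, and 4.12, 3.24, 2.95 and 4.50 in WT. The HYPK arrays thus split, with exon 1 replicates 2 and 3 and exon 2 replicate 4 above the rest, and the differences had adjusted p of 0.167 in amiNAA10 and 0.0535 in the mean of both HYPK lines. In the exon 1 line taken alone RLP53 was called higher (2.02, SE 0.62, adjusted p = 0.0310), and in the exon 2 line it was not (1.004, adjusted p = 0.319). RLP40, a chromosomal neighbour of RLP39 and RLP41, was at 0.85 in amiNAA10 and 0.45 in the HYPK lines without a call.

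The developmental members CLV2, TMM and RLP44 were not called against WT in any line. CLV2, which acts with the membrane pseudokinase CRN in the perception of CLE peptides, read 5.83, 5.34, 5.61 and 5.08 in amiNAA10, 5.39, 5.28, 5.21 and 5.39 in the exon 1 line, 5.65, 5.51, 5.26 and 5.36 in the exon 2 line, and 5.62, 5.71, 5.02 and 5.39 in WT. Its differences were 0.03 (SE 0.17) in amiNAA10 and -0.05 (SE 0.14) in the HYPK lines. Of 7 other genes of the CLV2 pathway, 4 fell in amiNAA10 (BAM1 by 0.79, CLE40 by 0.70, CRN by 0.62 and CLV1 by 0.42), beside 15.4% of all probe sets; without amiNAA10 replicate 2 or 4 or WT replicate 3 or 4, 2 were called. In the mean of both HYPK lines none was called, with 4 at an unadjusted limma p under 0.05, beside 34.3% of all probe sets. With a replicate block, with array weights, above the dimmest 30%, or without exon 2 replicate 1 or 2 or WT replicate 1 or 4, 1 was called. In the exon 1 line BAM1 fell (by 0.53, adjusted p = 0.0340). The meristem genes CLV3 and WUS of this list had WT means of 1.21 and 1.18, in the dimmest 30%. RLP44, a partner of the brassinosteroid receptor BRI1, read 1.06 to 1.86 in amiNAA10, 1.02 to 1.84 in the exon 1 line, 1.30 to 1.45 in the exon 2 line and 1.15 to 1.36 in WT, also within the dimmest 30%. Of 3 listed partner genes of RLP44, 2 rose in amiNAA10 and in the HYPK lines, beside 15.4% and 11.2% of all probe sets. BRI1 rose by 1.02 and 0.72, and PSKR1, the phytosulfokine receptor gene, by 1.12 and 0.71. PSKR2 was not called (0.15 and 0.25).

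TMM separated the lines from each other more than from WT. It read 3.29, 3.90, 3.46 and 2.98 in amiNAA10, 2.21, 2.83, 2.57 and 2.61 in the exon 1 line, 3.07, 3.15, 2.59 and 2.36 in the exon 2 line, and 3.25, 3.08, 3.40 and 2.46 in WT. The HYPK lines were below amiNAA10 by 0.73 (SE 0.20, adjusted p = 0.0278), with overlap between the groups, and that call ended without amiNAA10 replicate 2 (adjusted p = 0.132), amiNAA10 replicate 3 (0.0829) or exon 1 replicate 1 (0.0504). Against WT the differences were 0.36 (adjusted p = 0.273) in amiNAA10 and -0.37 (adjusted p = 0.206) in the HYPK lines. SPCH, the transcription factor that starts the stomatal lineage, read 1.42 to 1.94 in the exon 1 line and 1.72 to 1.94 in the exon 2 line, against 2.97 to 5.04 in amiNAA10 (difference -2.36, adjusted p = 0.000242). In WT it read 1.77 to 2.46. The stomatal lineage markers SPCH, POLAR, BASL, MUTE and FAMA, of which SPCH alone was called in that contrast, summed to 11.9 to 12.8 log2 units in the exon 1 line and 12.2 to 13.6 in the exon 2 line, against 14.2 to 17.4 in amiNAA10; WT lay at 12.7 to 14.2. BASL and MUTE were in the dimmest 30%. Against WT, 2 of these 5 markers rose and 1 fell in amiNAA10, beside 15.4% and 15.4% of all probe sets. SPCH rose by 1.95 there, while FAMA fell by 0.55. In the HYPK lines FAMA fell by 0.64 and 0 of the 5 rose. Of the 2 epidermal markers, PDF1 was also higher in amiNAA10 (mean 5.40, against 2.01 in WT), while ATML1 was not called (6.91, against 7.08 in WT). The part of young or stomatal lineage cells in the TMM values was not tested. In the TMM pathway list of 10 genes, 2 rose and 3 fell in amiNAA10, not far from the 15.4% higher and 15.4% lower over all probe sets. In the HYPK lines 6 fell, beside 11.5% of all probe sets. The receptor kinase gene ERL2 fell by 1.46 and ERECTA by 0.80 in the HYPK lines, and EPFL9, a peptide that promotes stomata, fell by 1.28 in amiNAA10 and by 1.47 in the HYPK lines.

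Several adaptor and co-receptor genes of the immune RLPs rose too. SOBIR1, the adaptor kinase, read 10.02, 10.23, 10.09 and 9.93 in amiNAA10, 9.65, 10.19, 10.27 and 10.02 in the exon 1 line, 9.54, 9.34, 9.72 and 10.57 in the exon 2 line, and 8.43, 8.59, 8.40 and 8.97 in WT. It rose without overlap, by 1.47 (SE 0.22, adjusted p = 9.50e-05) in amiNAA10 and by 1.32 (SE 0.19, adjusted p = 0.000170) in the HYPK lines. Of the 9 adaptor, co-receptor and BIR-type regulator genes, 6 rose in amiNAA10, beside 15.4% of all probe sets. In the mean of both HYPK lines 5 rose and SERK1 fell, beside 11.2% and 11.5%; without WT replicate 1 or 2, 3 rose and none fell. In the exon 2 line taken alone 2 of the 9 rose, SOBIR1 and BIR2, a count of 4 to 5 without amiNAA10 replicate 2, exon 1 replicate 1, exon 2 replicate 2, WT replicate 4 or the dimmest 30%. BAK1 rose by 1.15 in amiNAA10 and by 0.55 in the HYPK lines, BIR1, a negative regulator of cell death, by 1.62 and 0.86, and SERK4 by 1.65 and 1.01. Among 15 genes that act downstream of immune RLPs, 13 rose and 1 fell in amiNAA10, and 12 rose and 1 fell in the HYPK lines, beside 15.4% and 11.2% of all probe sets higher. They included EDS1 (1.76 and 1.47), PAD4 (1.5 and 1.30), the helper receptor gene ADR1-L1 (1.73 and 1.49), the regulator gene SARD1 (3.15 and 2.93) and BDA1 (2.28 and 2.90), which acts downstream of SNC2. RBOHD, the oxidase of the immune oxidative burst, was not called (0.30 and 0.04).

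**Figure D4:**
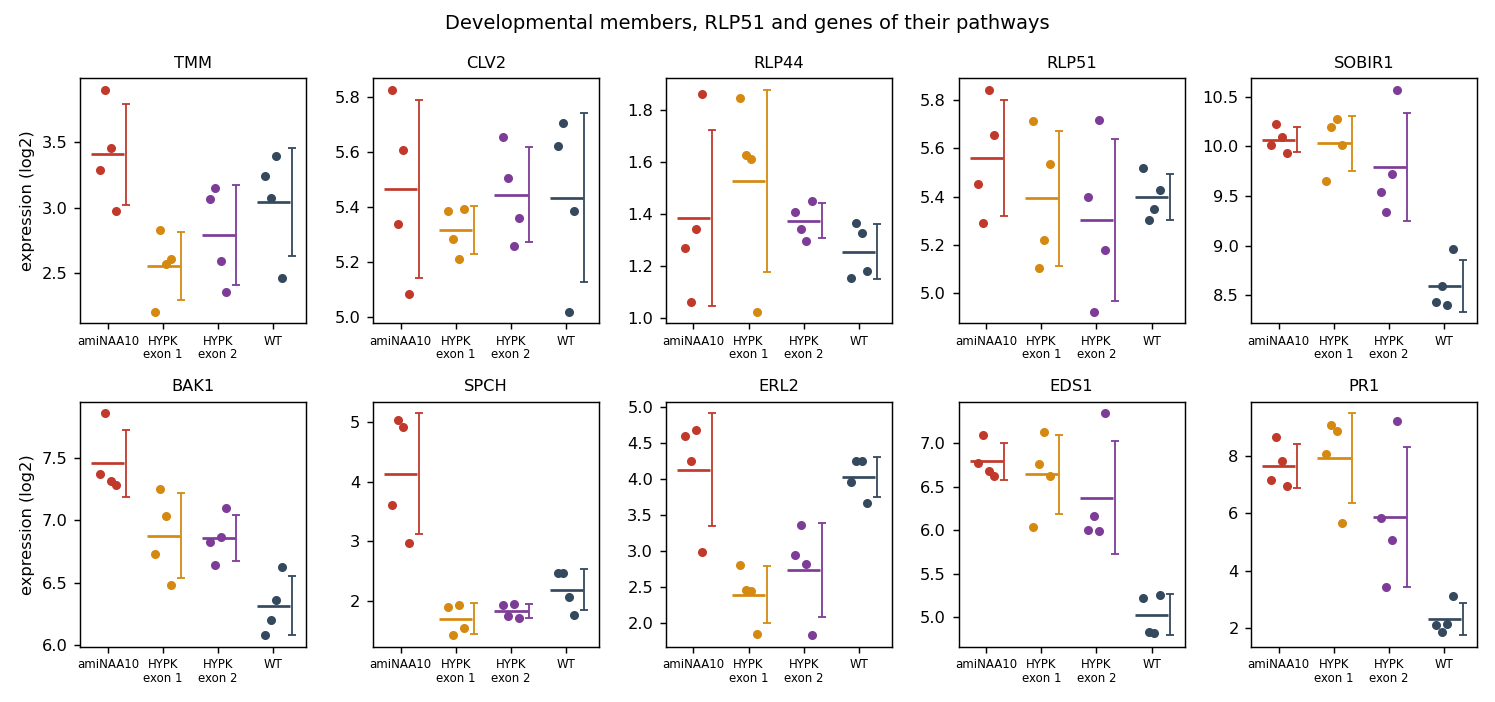
Expression (log2) per array of the developmental members TMM, CLV2 and RLP44, of RLP51 and of genes from their pathways and defence; horizontal lines are means and bars are SD (n = 4). SOBIR1, EDS1 and PR1 sit lowest in WT, SPCH is high in amiNAA10 alone, and CLV2, RLP44 and RLP51 overlap across all 4 genotypes.

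Many RLP genes lie beside a relative. In the RefSeq gene table of assembly TAIR10.1, 32 of the 53 stand in 12 neighbourhoods with at most 10 coding genes between members, a limit set after the values were seen. Of these 32 genes, 23 rose in amiNAA10 and 20 in the HYPK lines, beside 15.4% and 11.2% of all probe sets. Of the 21 genes that stand alone, 7 and 6 rose; the difference between the 2 sets was not tested. Neighbours did not always move together. In the group of 5 on chromosome 2, RLP28 was at 3.91 in amiNAA10, while RLP24, RLP25, RLP26 and RLP27 were between -0.09 and 0.42. RLP23 was at 3.33 beside RLP22 at 0.17, and RLP50 at 2.76 in a group with RLP48 at -0.30 and RLP47 at 0.62. In contrast, RLP36, RLP37 and RLP38 on chromosome 3 rose by 2.57, 2.29 and 4.38, and RLP39, RLP41 and RLP42 rose by 4.30, 5.06 and 3.24 around RLP40 at 0.85. Relatives of like sequence can share hybridisation signal, and the probe sequences were not used here, so values of close relatives are uncertain to that extent.

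**Figure D5:**
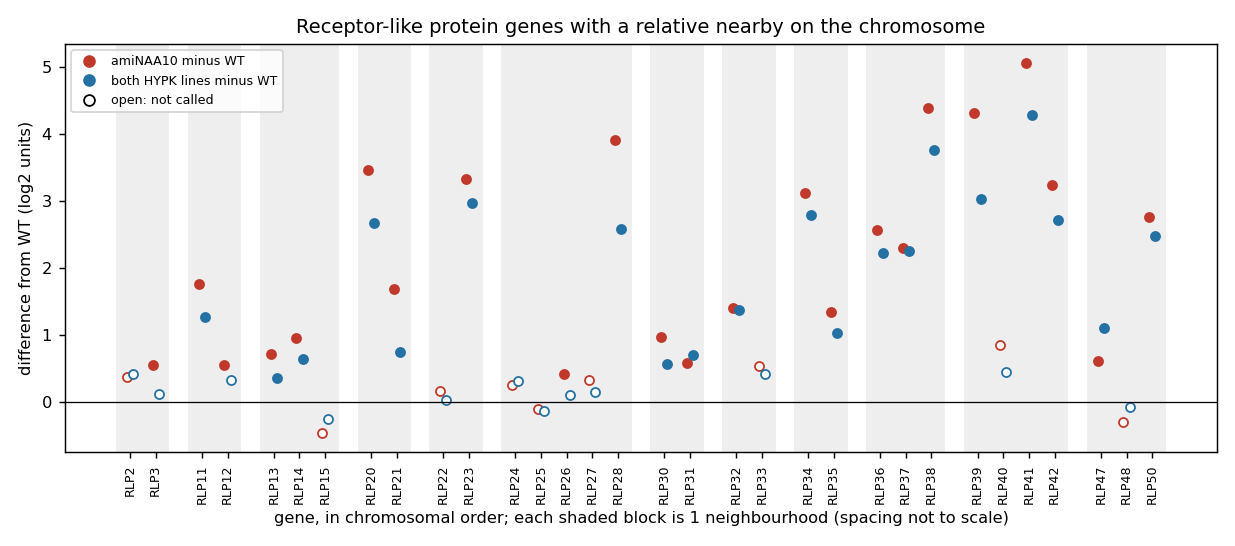
Differences from WT (log2 units) in amiNAA10 and in the mean of both HYPK lines for the 32 RLP genes with a relative nearby, in chromosomal order; shaded blocks are the 12 neighbourhoods and open points were not called. RLP28 and RLP23 stand high beside neighbours at 0.42 or less in amiNAA10, RLP50 stands above RLP47 and RLP48, and the block of RLP36, RLP37 and RLP38 is high throughout.

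Of the 53 genes, 18 overlap the span of another gene in that table, and which strand the probes read is not given in the sources used here. RLP37 lies within the span of XRCC4, whose own probe set differed by 0.25 in amiNAA10 and 0.28 in the HYPK lines without a call. RLP30 lies within AT3G05350, which fell by 0.58 and by 0.55. RLP50 lies within a non-coding gene, AT4G13918, which rose by 0.73 in amiNAA10 and by 0.42 in the HYPK lines, less than RLP50 itself.

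RLP genes were compared directly between the HYPK lines and amiNAA10. In the mean of both HYPK lines 5 genes were lower than in amiNAA10 and none was higher, against 4.9% lower and 5.34% higher over all probe sets. They were RLP28 (-1.33, SE 0.38, adjusted p = 0.0344), RLP21 (-0.93, SE 0.22, adjusted p = 0.0132), TMM, RLP46 (-0.72, SE 0.21, adjusted p = 0.0357) and RLP3 (-0.42, SE 0.12, adjusted p = 0.0353). RLP21 read 3.82, 3.64, 3.48 and 4.09 in the exon 1 line and 3.14, 4.07, 3.61 and 4.50 in the exon 2 line, against 4.56, 4.68, 4.86 and 4.81 in amiNAA10, with no overlap. Its WT arrays read 2.48, 3.49, 2.82 and 3.37, so the HYPK lines lay between, at 0.75 above WT (adjusted p = 0.0214, and not called without WT replicate 1 or 3, adjusted p = 0.0996 and 0.0746). The number of such genes was 11 without exon 2 replicate 4, against 6.23% lower over all probe sets. The genes added there were RLP39 (-1.64, adjusted p = 0.00494), RLP20 (-0.96, 0.00707), RLP7 (-1.42, 0.0145), RLP41 (-1.10, 0.0215), RLP52 (-1.34, 0.0222) and RLP13 (-0.39, 0.0340). The number was 0 without amiNAA10 replicate 3. It was between 1 and 3 without amiNAA10 replicate 1 or 2, exon 1 replicate 1 or 4, or exon 2 replicate 1 or 2. Among the 25 shared risers the HYPK mean was below that of amiNAA10 in 22, and most of these differences were not called.

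Among the 25 genes that rose in both comparisons, arrays of the HYPK lines varied more than those of the other genotypes. The median SD between arrays was 0.20 in amiNAA10, 0.53 in the exon 1 line, 0.71 in the exon 2 line and 0.38 in WT; over all probe sets above the dimmest 30% it was 0.20, 0.21, 0.23 and 0.21. In the 21 genes called in neither comparison the median SDs lay closer together, at 0.20 in amiNAA10, 0.28 in the exon 1 line, 0.24 in the exon 2 line and 0.19 in WT. In the 5 genes called in amiNAA10 and not in the HYPK mean they were 0.21, 0.19, 0.16 and 0.15. Exon 2 replicate 4 was the highest exon 2 array in 23 of the 25 genes and in 32 of all 53 (60.4%), which held for 27.9% of all probe sets. In 13 of the 25 it was above every amiNAA10 array, a pattern not counted over all probe sets. Without it, RLP12 and RLP43 were no longer called in the exon 2 line (0.48 and 0.81, adjusted p = 0.0737 and 0.0502), nor RLP14 in both HYPK lines (0.59, adjusted p = 0.0566). Its PR1 value was 9.21, against 3.41 to 5.83 in the other exon 2 arrays. In the exon 1 line replicates 2 and 3 were both above replicates 1 and 4 in 19 of the 25 genes, in 26 of all 53 and in 19.8% of all probe sets, an order picked after the values were seen. Their PR1 values were 9.10 and 8.87, and those of replicates 1 and 4 were 8.08 and 5.68. The 25 genes were picked by their calls, whereas the probe sets beside them were not. Spread and array order were not computed for all probe sets that rose in both comparisons. Neither is therefore shown to be particular to RLP genes.

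Most of the rises were also called against WT in each insertion line taken alone. Of the 25 genes that rose in amiNAA10 and in the mean of both HYPK lines, 19 rose in each line. RLP30 was not called in the exon 1 line, and RLP13, RLP14 and RLP35 were not called in the exon 2 line. RLP11 and RLP21 were called in neither line alone. In the exon 1 line 24 RLP genes rose and 1 fell, against 9.69% higher and 9.89% lower over all probe sets, and 19 rose at least 2-fold, against 2.53%. The gene that fell was RLP6, by 0.62. Its call ended with a replicate block or without exon 1 replicate 2 or 4 or WT replicate 1, 2 or 4 (adjusted p = 0.0578 to 0.110). RLP6 was not called in the exon 2 line (-0.49, adjusted p = 0.114). In the exon 2 line 21 rose and none fell, against 7.03% and 6.82%, and 17 rose at least 2-fold, against 1.71%. Without its replicate 4, 19 rose and none fell, against 4.01% and 3.52%. RLP41 was 4.64 above WT in the exon 1 line (SE 0.50, adjusted p = 2.38e-05) and 3.92 in the exon 2 line (SE 0.50, adjusted p = 0.000154). Without exon 2 replicate 4 the second value was 3.29 (SE 0.35). RLP39 in the exon 2 line was at 2.56 over all arrays and at 1.84 without replicate 4 (adjusted p = 0.0132), and RLP34 at 2.43 and 1.81 (adjusted p = 0.00994). Between the lines limma called 0 of the 53 genes, beside 0% higher and 0.00719% lower over all probe sets. At an unadjusted limma p under 0.05 there were 5 of the 53 (9.43%), beside 4.38% of all probe sets. The differences of exon 1 minus exon 2 ran from -0.38 to 1.01, and without exon 2 replicate 4 none was called either.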

How the data were processed

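Biotin-labelled cRNA of total leaf RNA was hybridised to 16 Affymetrix arrays, per the labels' protocols. The deposited table holds log2 values, which the authors made by RMA, per the submitters' processing notes. Array design, software version and probe annotation: not given in the sources used here. All columns share one distribution (sorted columns differ by at most 0.0019), so a shift of total RNA could not be seen. Probe sets carry locus codes, and the 53 members matched by code; symbols and neighbours came from a RefSeq table (TAIR10.1), and the loci of NAA10 and HYPK, listed there without a symbol, from general knowledge of these genes.

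A linear model with 1 mean per genotype was fitted to all 27826 probe sets without a filter, and limma 3.58.1 in R 4.3.3 gave two-sided tests of 6 contrasts. The procedure was tested on simulated data. The members and lists were chosen with earlier results of these data known, and no test of a list was made. Genes described with every array or their range had a known role, were among the 8 largest differences in amiNAA10 or in the HYPK lines with a call and no overlap with WT, fell, or were called between lines (at most 6 of each); RLP53, RLP54, RLP40, RLP47 and RLP43 were added after their values were seen, as were the spread and array-order counts. Alternatives were a replicate block, an intensity trend with robust moderation, array weights, leaving out the dimmest 30% of probe sets, fitting the compared groups only, and leaving out each array. Arrays have no read depth; 4 arrays per genotype limit the precision.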

Additional observations from a re-analysis of the deposited data

Results flagged for a closer look

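Of 84 combinations of described RLP gene and genotype, 5 had an array far from the other 3 of its genotype, and chance gives about 1 in 20. RLP3 in WT replicate 3 read 3.5, against 2.96 to 3.05 in the other WT arrays. RLP23 in WT replicate 4 read 6.44, against 5.62 to 5.70. RLP30 in amiNAA10 replicate 2 read 5.82, against 5.0 to 5.01. RLP39 in amiNAA10 replicate 4 read 6.63, against 7.12 to 7.19. RLP34 in exon 2 replicate 4 read 9.14, against 6.5 to 6.94.

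The effect of the lines against WT differed between the HYPK lines and amiNAA10, by the direct contrast, in RLP28 (-1.33, adjusted p = 0.0344), RLP21 (-0.93, adjusted p = 0.0132), TMM (-0.73, adjusted p = 0.0278), RLP46 (-0.72, adjusted p = 0.0357) and RLP3 (-0.42, adjusted p = 0.0353), each lower in the HYPK lines. The adjusted p-values are from limma.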

How the results depend on the processing

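The numbers of RLP genes called against WT stayed within 1.5 times under every alternative run. Leaving out single arrays gave 28 to 32 called genes in amiNAA10, 20 to 27 in the exon 1 line, 19 to 23 in the exon 2 line and 21 to 29 in both HYPK lines. Between the HYPK lines and amiNAA10 the 5 calls became 3 with an intensity trend and robust moderation, 8 with array weights, 3 with the compared groups only, and 0 to 11 without single arrays; the cause was not tested. Between the HYPK lines 0 genes were called under every alternative. Correlations of deviations between same-numbered arrays ran from -0.29 to 0.30. Differently numbered arrays were not compared, so these values cannot tell whether the numbers pair the samples. With the replicate number as a block the counts were 31, 22, 22, 28, 4 and 0 in the order of amiNAA10, exon 1 line, exon 2 line and both HYPK lines against WT, both HYPK lines against amiNAA10, and between the HYPK lines. For the described genes, 49 of 2634 alternative values lost a call, 26 gained one, 0 called values changed sign, and 45 values changed sign while staying uncalled. Of 630 counts of the partner lists, 61 moved by over 1.5 times. Against WT these were counts of the CLV2 pathway in all 4 comparisons, of the adaptor and co-receptor genes in the HYPK lines singly and together, and of the TMM pathway and the RLP44 partners in the exon 2 line. The counts of the TMM pathway and the downstream genes in amiNAA10 and in both HYPK lines stayed within 1.5 times. The rest were counts between the HYPK lines and amiNAA10. The dimmest 30% of probe sets limit what can be read of 10 RLP genes.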
